A study of Mus musculus with 10 samples.

Results

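The regulatory T cell and costimulatory receptor genes described here are 9 genes, taken by symbol from a count table of 21849 genes: the transcription factors Foxp3, Ikzf2 and Ikzf4, the interleukin-2 receptor subunit Il2ra, the chemokine receptor Ccr8, and the costimulatory receptors Tnfrsf18, Tnfrsf4, Tnfrsf9 and Icos. They were measured by RNA sequencing in 10 tumours of CT26, a colon carcinoma line from the mouse, grown under the skin of BALB/c hosts aged 5 weeks. One group of hosts ate a normal diet and the other an arginine-deficient diet matched in calories, beginning 1 week before implantation. Tumours were taken on day 20. There were 5 libraries from each diet, each taken here as 1 tumour, with the host's own immune cells in the tissue. All 9 genes have a row in the table, but 2 are at 0 in every library and 1 had too few counts, so 6 were tested.

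Regulatory T cells are CD4 T cells that restrain other lymphocytes, and Foxp3 is the transcription factor that defines them. Helios (Ikzf2) and Eos (Ikzf4) are Ikaros-family zinc finger proteins, Il2ra encodes CD25 of the high-affinity interleukin-2 receptor, and Ccr8 is a chemokine receptor of regulatory T cells in tumours. GITR (Tnfrsf18), OX40 (Tnfrsf4) and 4-1BB (Tnfrsf9) belong to the tumour necrosis factor receptor superfamily and signal through TRAF adaptors, while ICOS is a relative of CD28. Activated conventional T cells and some other leukocytes also use most of these genes, so bulk tumour RNA does not assign them to one cell type.

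On the mm10 build, Foxp3 (ENSMUSG00000039521.13) lies at 7573644 to 7595245 of chromosome X. Il2ra (ENSMUSG00000026770.5) lies at 11642807 to 11693193 of chromosome 2 and Ccr8 (ENSMUSG00000042262.5) at 120092114 to 120094906 of chromosome 9. Icos (ENSMUSG00000026009.14) spans 60977927 to 61000320 and Ikzf2 (ENSMUSG00000025997.13) 69531214 to 69687245 of chromosome 1. Ikzf4 (ENSMUSG00000002578.18) spans 128630843 to 128645991 of chromosome 10. The TNF receptor genes share chromosome 4: Tnfrsf9 (ENSMUSG00000028965.13) at 150914562 to 150946102, Tnfrsf4 (ENSMUSG00000029075.6) at 156013843 to 156016612 and Tnfrsf18 (ENSMUSG00000041954.18) at 156026164 to 156028895, with 9552 bases from the end of Tnfrsf4 to the start of Tnfrsf18. All are protein-coding, and each span covers the whole gene with its introns and UTRs.

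RefSeq start sites on GRCm38.p6 gave 8 upstream windows of 250 bases for 6 of the 9 genes (Foxp3, Il2ra, Ccr8, Tnfrsf18, Tnfrsf4 and Tnfrsf9). Ikzf2, Ikzf4 and Icos had none. Shown here, on the plus strand and without annotated exon bases, are those of Il2ra, which had the largest difference in mean level between the diets, of Ccr8, which was missing from 1 tumour, and of the first start of Tnfrsf9, which lies inside another gene. They cover chr2:11642542-11642791, chr9:120091883-120092113 and chr4:150919905-150920154. Capitals mark matches to the motifs named after them.
Il2ra: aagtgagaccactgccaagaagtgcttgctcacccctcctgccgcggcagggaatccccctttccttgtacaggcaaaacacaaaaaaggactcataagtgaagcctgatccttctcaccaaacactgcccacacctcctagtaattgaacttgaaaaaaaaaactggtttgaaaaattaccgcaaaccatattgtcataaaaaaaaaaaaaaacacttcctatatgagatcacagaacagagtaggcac
Ccr8: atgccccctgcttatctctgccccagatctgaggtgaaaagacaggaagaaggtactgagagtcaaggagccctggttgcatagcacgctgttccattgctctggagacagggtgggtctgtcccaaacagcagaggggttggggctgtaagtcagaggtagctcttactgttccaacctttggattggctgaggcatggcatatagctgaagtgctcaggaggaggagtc
Tnfrsf9: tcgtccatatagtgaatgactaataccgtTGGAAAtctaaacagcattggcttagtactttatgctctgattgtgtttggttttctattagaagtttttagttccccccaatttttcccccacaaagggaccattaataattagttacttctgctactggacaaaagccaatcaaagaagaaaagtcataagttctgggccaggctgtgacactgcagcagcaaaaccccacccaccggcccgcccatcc
The 8 motifs searched on both strands were TTCNNNGAA (STAT), TGAGTCA (AP-1), TGTTTAC (forkhead), TGGAAA (NFAT), TGTGGT (RUNX), CCGGAAG (ETS), TGACGTCA (CRE) and TATAAA (the core promoter box). Of the 8 windows, 3 held the STAT letters (Foxp3 at its second start, Tnfrsf18, and Tnfrsf9 at its second start), against 7.02% of all 32851 windows of that length. The NFAT letters were in 3 of the 8 windows (Foxp3 at its second start, where they overlap the STAT match, Tnfrsf4, and Tnfrsf9 at its first start), against 18.6% of all windows. AP-1 letters were in 1 (Tnfrsf9, second start) and core promoter box letters in 1 (Foxp3, first start), against 4.46% and 12.4%. The other 4 motifs, present in 3.17% (forkhead), 14% (RUNX), 6.91% (ETS) and 1.55% (CRE) of windows, had no match in the 8. The matches of Foxp3, Tnfrsf18 and Tnfrsf4, and the AP-1 match of Tnfrsf9, lie in annotated exon bases. A match is a run of letters and was not measured as a binding site.

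Foxp3 was listed at 0 counts in all 10 libraries, and so was Tnfrsf18. Both have all of their exonic bases inside the bodies of other annotated genes: 4577 of 4577 bases for Foxp3, which is overlapped by Gm36995, Ccdc22, Ppp1r3f and Flicr, and 1524 of 1524 bases for Tnfrsf18, which lies inside Gm16008 on the opposite strand. Ccdc22, a protein-coding neighbour of Foxp3, was itself at 0 in all libraries, with 96.0% of its exonic bases inside other genes. Across the table, 1238 of the 1450 protein-coding genes with every exonic base inside other bodies were at 0 in every library (85.4%). Among genes with none there it was 2650 of 13978 (19.0%). Partial overlap did not raise that share: it was 18.1% for genes with 50% to under 100% there, and 2.73% for those above 0% and under 50%. Of the 169 different genes of the lists used here, 9 were at 0 throughout, and 8 of those 9 were also the 8 whose exonic bases all lay inside other genes: Foxp3, Tnfrsf18, Il2rg, Cd27, Ikzf5, Xcl1, Ms4a1 and Acta1. Il2rg and Cd27 are genes that most T cells use. The remaining one, the keratinocyte gene Dsg3, has no such overlap. The values of Foxp3 and Tnfrsf18 are therefore given as listed at 0, with no level, limit or fold, and the label of the gene set could not be checked through its defining factor.

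**Figure D1:**
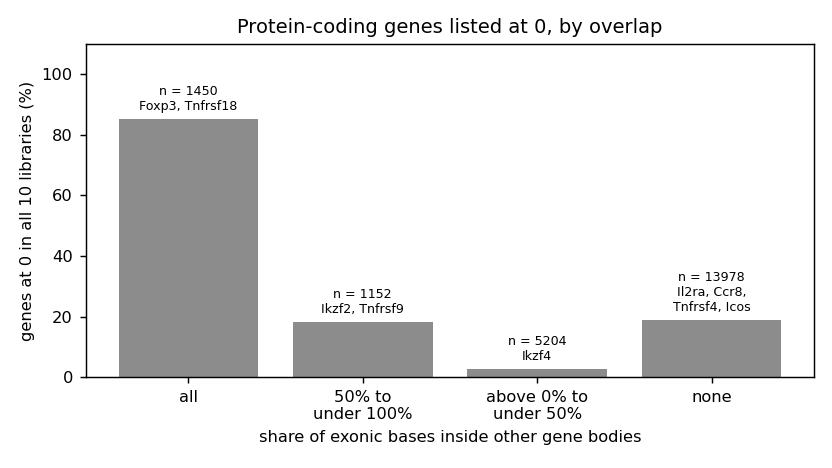
Percentage of protein-coding genes at 0 in all 10 libraries (y axis), by the share of their exonic bases inside other gene bodies (x axis); n is the number of genes, and the names are the 9 genes described here. The bar for complete overlap, which holds Foxp3 and Tnfrsf18, stands at 85.4%, and that for no overlap at 19.0%. The bars between them stand at 18.1% (50% to under 100%) and 2.73% (above 0% to under 50%).

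The same measure was 94.4% for Tnfrsf9, which lies almost wholly inside Camta1 on the opposite strand, and 72.5% for Ikzf2, part of which lies under the antisense gene Gm29114. It was 1.80% for Ikzf4 and 0 for Il2ra, Ccr8, Tnfrsf4 and Icos. Tnfrsf9 and Ikzf2 had the fewest counts of the 7 genes with any, 38 and 123 over all libraries, while Camta1 had 429 to 1674 counts per library. Whether the overlap set the low counts of Tnfrsf9 and Ikzf2 was not tested.

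None of the 6 tested genes differed between the diets by more than the spread between tumours. By edgeR's quasi-likelihood test 0 of the 6 passed at an adjusted p under 0.05, with 0.0541% of all 12929 genes tested passing, and 0 of the 6 had an unadjusted p under 0.05, against 6.74% of all genes. DESeq2 called 0 of the 5 with an adjusted p (1.01% of all genes) and limma voom with sample weights 0 of the 6 (2.88% of all genes), also with 0 at an unadjusted p under 0.05. The libraries of the diets overlapped in every gene with counts, as they did in all but 1.65% of the genes tested. Estimates were above 0 for 4 genes (Il2ra, Icos, Ccr8 and Tnfrsf4) and below 0 for 2 (Ikzf4 and Ikzf2), with a median log2 fold change of 0.11, beside 0.0012 over all tested genes. Their standard errors had a median of 0.34, against 0.18 over all tested genes. In bulk tissue, fewer cells of a type and less RNA per cell cannot be told apart. Levels below are CPM, counts scaled to library size with TMM factors, and fold changes are the deficient over the normal diet on the log2 scale.

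**Figure D2:**
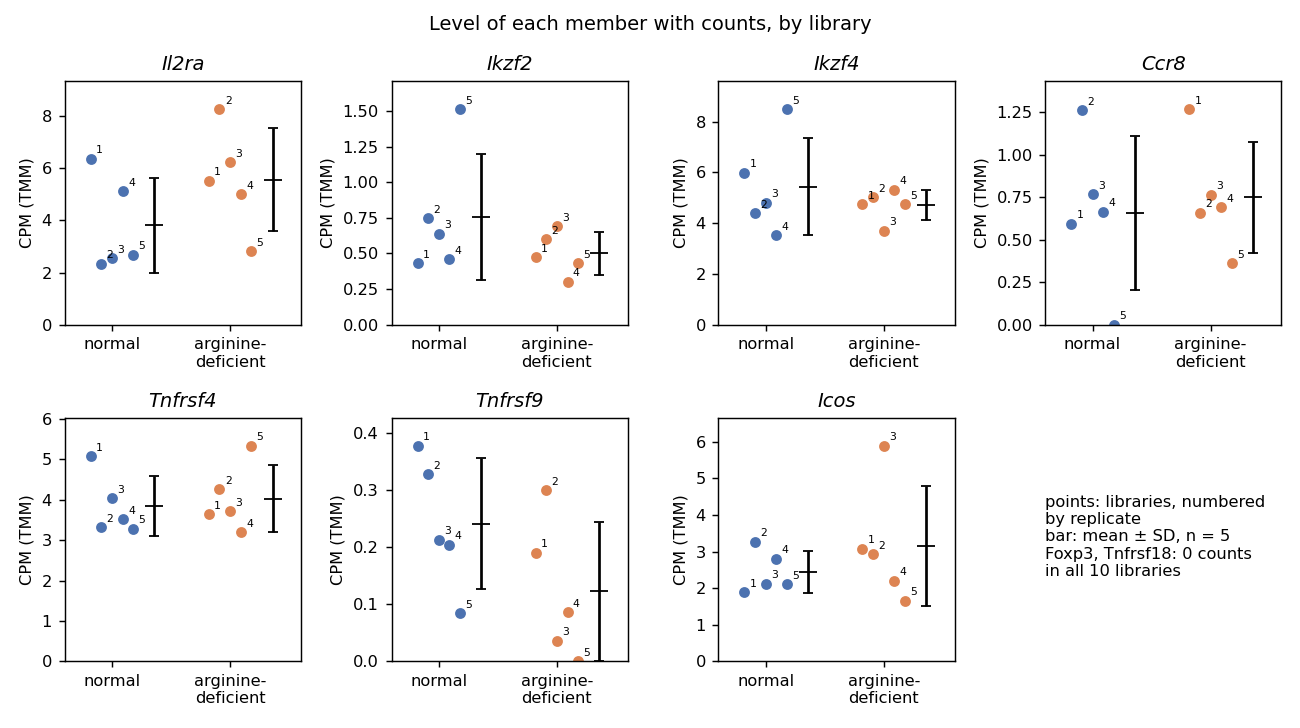
Level in CPM (y axis, linear from 0) of the 7 genes with counts, by diet (x axis); points are libraries numbered by replicate, and bars are the mean ± SD (n = 5). The diets overlap in every panel, and normal-diet replicate 5 is the highest library for Ikzf2 and Ikzf4 and lies at 0 for Ccr8.

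Among the transcription factors, Ikzf4 was the better measured, with 66 to 150 counts per library. Its level in deficient replicates 1 to 5 was 4.76, 5.03, 3.71, 5.31 and 4.76 CPM. In normal-diet replicates 1 to 5 it was 5.99, 4.40, 4.81, 3.53 and 8.50 CPM. The deficient tumours lay close together inside the wider range of the normal diet, which held both the highest and the lowest tumour. The means were 4.71 ± 0.61 and 5.44 ± 1.92 CPM (SD, n = 5 each), a log2 fold change of -0.20 (SE 0.24, 95% interval -0.72 to 0.32; adjusted p = 0.984 by edgeR). Without normal-diet replicate 5 the log2 fold change was 0.0094.

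Ikzf2 had 6 to 19 counts per library, so its values are coarse. It stood at 0.48, 0.60, 0.69, 0.30 and 0.43 CPM in deficient replicates 1 to 5. The normal-diet tumours had 0.43, 0.75, 0.64, 0.46 and 1.51 CPM. The high tumour was again normal-diet replicate 5, with 18 counts, and the other 9 tumours were below 0.8 CPM. The log2 fold change was -0.54 (SE 0.40, 95% interval -1.41 to 0.33; adjusted p = 0.939 by edgeR), and -0.19 without that tumour.

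Il2ra had the largest difference of means in this set. Deficient replicates 1 to 5 had 5.52, 8.27, 6.22, 5.01 and 2.81 CPM. Normal-diet replicates 1 to 5 had 6.37, 2.34, 2.55, 5.11 and 2.69 CPM. On the deficient diet 4 tumours were high and replicate 5 was low, while on the normal diet replicates 1 and 4 were high and the other 3 were low. The means were 5.57 ± 1.98 and 3.81 ± 1.82 CPM (SD, n = 5 each), a log2 fold change of 0.55 (SE 0.35, 95% interval -0.21 to 1.30; adjusted p = 0.890 by edgeR). On the fold scale that interval runs from 0.867 to 2.46, so the libraries allow anything from a slightly lower to a more than doubled level. With each library left out in turn the estimate ran from 0.36 (without deficient replicate 2) to 0.81 (without normal-diet replicate 1).

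Ccr8, the chemokine receptor, was sparse, with 162 counts over all libraries. Deficient replicates 1 to 5 had 40, 11, 21, 16 and 5 counts, or 1.27, 0.66, 0.76, 0.69 and 0.36 CPM. Normal-diet replicates 1 to 5 had 11, 27, 18, 13 and 0 counts, or 0.59, 1.26, 0.77, 0.66 and 0 CPM. The 0 of normal-diet replicate 5, the shallowest library, allows up to 3 counts or 0.252 CPM, which covers counting error only. Middle tumours of the diets were alike and the highest of each nearly equal. The log2 fold change was 0.17 (SE 0.55, 95% interval -1.02 to 1.35; adjusted p = 0.998 by edgeR), and it was -0.10 without normal-diet replicate 5 and -0.12 without deficient replicate 1.

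Tnfrsf4, a TNF receptor gene, varied least of the 7 genes with counts. OX40 transcripts stood at 3.65, 4.25, 3.71, 3.19 and 5.34 CPM in deficient replicates 1 to 5. They were at 5.07, 3.32, 4.04, 3.53 and 3.28 CPM in normal-diet replicates 1 to 5. Each diet had 1 tumour above 5 CPM and 4 between 3 and 4.3 CPM. The means were 4.03 ± 0.82 and 3.85 ± 0.75 CPM (SD, n = 5 each), a log2 fold change of 0.06 (SE 0.21, 95% interval -0.40 to 0.52; adjusted p = 0.998 by edgeR), which was -0.06 without deficient replicate 5. As folds, that interval excludes a level under 0.757 or over 1.43 times that of the normal diet. The coefficient of variation over all 10 tumours was 19.0%, against 27.5% for Ikzf4, 43.0% for Il2ra and 43.5% for Icos. It was 53.4% for Ccr8, 54.0% for Ikzf2 and 70.5% for Tnfrsf9. These last 3 had the fewest counts of the 7 (162, 123 and 38 over all libraries), and so the largest counting error.

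Tnfrsf9 was too sparse to be kept by the filter on low counts. Its counts were 6, 5, 1, 2 and 0 in deficient replicates 1 to 5 and 7, 7, 5, 4 and 1 in normal-diet replicates 1 to 5, sums of 14 and 24. Fitted without that filter, 4-1BB had a log2 fold change of -0.97 (SE 0.69, 95% interval -2.46 to 0.53; adjusted p = 0.860 by edgeR). Its high and low counts were spread over both diets.

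Icos was led by 1 tumour. Deficient replicates 1 to 5 had 3.08, 2.94, 5.89, 2.20 and 1.66 CPM. Normal-diet replicates 1 to 5 had 1.89, 3.28, 2.13, 2.81 and 2.10 CPM. Deficient replicate 3 stood well above the other 9 tumours, which ran from 1.66 to 3.28 CPM with the lowest on the deficient diet. The log2 fold change was 0.38 (SE 0.33, 95% interval -0.34 to 1.10; adjusted p = 0.960 by edgeR), and 0.03 (SE 0.26) without deficient replicate 3. That tumour also had the most skeletal muscle transcripts, 6509.7 CPM, the largest share of counts from mitochondrially encoded genes, 9.97%, and the most CD3 transcripts. Their part in the Icos value was not tested.

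**Figure D3:**
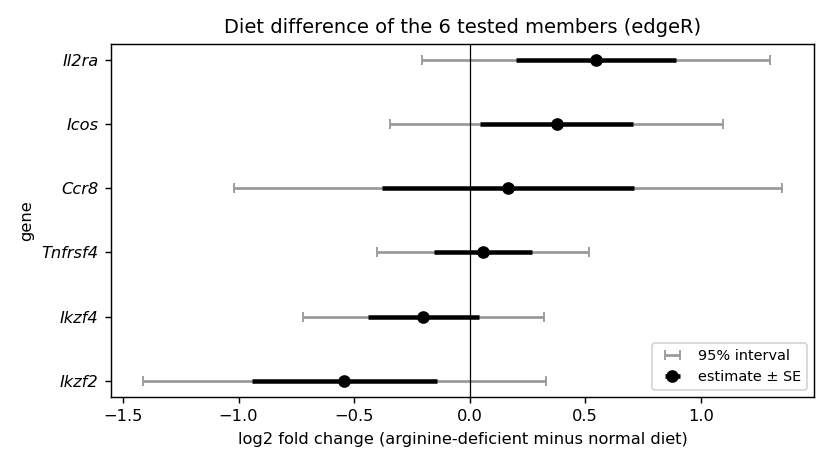
Log2 fold change of the 6 tested genes, arginine-deficient minus normal diet (x axis), by gene (y axis); points with thick bars are the estimate ± SE and thin bars the 95% interval, from edgeR. All 6 intervals include 0, from Ikzf2 at -0.54 to Il2ra at 0.55.

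Per kilobase of exon, Tnfrsf4 had the highest level of the genes with little or no overlap, 2.89 ± 0.55 CPM per kilobase (SD, n = 10). Ikzf4 (0.85 ± 0.23), Il2ra (0.82 ± 0.35), Icos (0.82 ± 0.35) and Ccr8 (0.60 ± 0.32 CPM per kilobase) followed and did not differ from one another beyond their spread. Tnfrsf4 lay above them by more than that spread. Ikzf2 and Tnfrsf9 were lowest at 0.054 and 0.067 CPM per kilobase, below the others by more than the spread, and are the 2 genes with counts most of whose exons lie inside other genes.

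The T cell content of the tumours was read from the CD3 genes Cd3d, Cd3e, Cd3g and Cd247, which encode the signalling chains of the T cell receptor. Their sum averaged 14.5 ± 5.47 CPM in normal-diet and 15.5 ± 5.71 CPM in deficient tumours (SD, n = 5 each; exact two-sided permutation p = 0.746, where the smallest possible is 0.00794). It reached 25.7 CPM in deficient replicate 3, was lowest at 6.39 CPM in normal-diet replicate 5, and stood at 12.2 to 21.1 CPM in the other 8 tumours. Of Cd247, 67.2% of exonic bases lie inside other genes. For every 100 CD3 counts there were 38.4 ± 18.4 Il2ra counts on the deficient and 29.4 ± 14.2 on the normal diet (SD, n = 5 each). Icos gave 19.8 ± 4.65 and 19.1 ± 8.67 counts, Tnfrsf4 28.3 ± 10.2 and 30.3 ± 12.9, and Ccr8 5.10 ± 2.46 and 3.96 ± 2.40. Besides Tnfrsf4, means were lower on the deficient diet for Ikzf4 (33.6 ± 11.3 against 49.7 ± 46.8), Ikzf2 (3.33 ± 0.98 against 7.53 ± 9.05) and Tnfrsf9 (0.92 ± 1.01 against 1.62 ± 0.33). Normal-diet replicate 5, the tumour with the fewest CD3 counts, had 133 for Ikzf4 and 23.7 for Ikzf2. Deficient replicate 3 gave 23.0 Icos counts per 100 CD3 counts, inside the range of the other deficient tumours (12.8 to 24.1). With the CD3 level as a term beside diet, the log2 fold change of Icos was 0.23 and that of Il2ra 0.53, and again 0 of the 6 genes passed.

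Across the 10 tumours, the Pearson r of the 6 tested genes with the CD3 genes ran from -0.71 to 0.75. None of the 6 relations passed adjustment (permutation tests with 100000 resamples, Benjamini-Hochberg over 6). Ccr8 had a Pearson r of 0.75 (permutation p = 0.0214, adjusted p = 0.101) and a Spearman rho of 0.55 (permutation p = 0.104, adjusted p = 0.498). Icos had an r of 0.60 (permutation p = 0.0823, adjusted p = 0.165) and a rho of 0.38 (permutation p = 0.275, adjusted p = 0.551). Ikzf4 went the other way, with an r of -0.71 (permutation p = 0.0338, adjusted p = 0.101) and a rho of -0.48 (permutation p = 0.166, adjusted p = 0.498). Without the 2 tumours farthest from the median CD3 level, deficient replicate 3 and normal-diet replicate 5, r was 0.54 for Ccr8, 0.20 for Icos and 0.12 for Ikzf4. Each of these 3 relations was weaker without 1 particular tumour and stronger without another. Without normal-diet replicate 1, r was 0.70 for Icos, and without normal-diet replicate 4 it was -0.86 for Ikzf4. Without normal-diet replicate 5 alone, r was 0.38 for Ccr8 (adjusted p = 0.623 by permutation) and -0.30 for Ikzf4 (adjusted p = 0.655 by permutation). Without deficient replicate 3 alone, r was 0.28 for Icos, while that of Ccr8 was higher, at 0.85. Ikzf2 had an r of -0.41 and a rho of 0.12 (permutation p = 0.225 and 0.759, adjusted p = 0.337 and 0.910), with an r of 0.55 without those 2. Il2ra had an r of 0.20 and a rho of -0.04 (permutation p = 0.590 and 0.919, adjusted p = 0.673 and 0.919), with an r of -0.45 without them. Tnfrsf4 had an r of 0.15 and a rho of 0.27 (permutation p = 0.673 and 0.449, adjusted p = 0.673 and 0.674), with an r of -0.08 without them. Each diet holds too few tumours for an r of its own. On deviations from the diet means, r was 0.74 for Ccr8, 0.58 for Icos and -0.70 for Ikzf4.

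**Figure D4:**
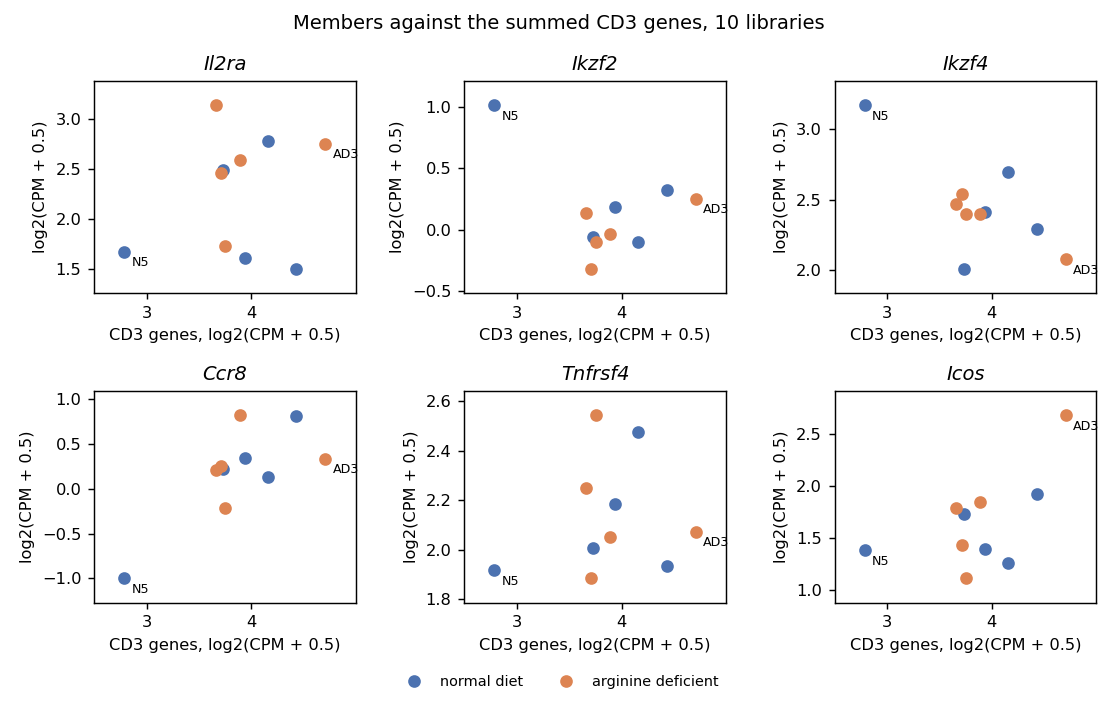
Level of each tested gene (y axis) against the summed CD3 genes (x axis), both as log2(CPM + 0.5), in 10 libraries coloured by diet; AD3 is deficient replicate 3 and N5 normal-diet replicate 5. These 2 tumours set the ends of the x axis, and the other 8 lie between them.

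The rest of the interleukin-2 pathway did not separate the diets. Of 12 genes, 10 were tested, 4 with estimates above and 6 below 0, a median of -0.04 and 0 passing. Il2rb, the beta chain shared with the interleukin-15 receptor, averaged 56.7 ± 19.4 CPM in normal-diet tumours and 57.2 ± 12.7 CPM in deficient ones (SD, n = 5 each), a log2 fold change of 0.01 (SE 0.23). The smallest p were those of Bcl2 (log2 fold change -0.26, SE 0.13), Cish, a feedback inhibitor induced by STAT5 (0.44, SE 0.31), Stat5b (0.11, SE 0.09) and Il15 (-0.21, SE 0.18). Il2 itself, 60.8% of whose exonic bases lie inside other genes, had at most 3 counts in any library, and the common chain Il2rg was listed at 0.

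Among the ligands, Ccl8, a CCR8 ligand in the mouse, was at 80.0 to 113 CPM in the deficient and 23.0 to 72.3 CPM in the normal-diet tumours, with no overlap. Its means were 101 ± 12.7 and 58.3 ± 20.1 CPM (SD, n = 5 each), a log2 fold change of 0.79 (SE 0.25, adjusted p = 0.465 by edgeR). It was the only one of the 4 ligand genes tested whose diets did not overlap, as in 1.65% of all genes tested. Tnfsf9, the ligand of 4-1BB, had a log2 fold change of 0.33 (SE 0.23), Icosl of -0.06 (SE 0.15) and the OX40 ligand Tnfsf4 of 0.01 (SE 0.53), and 0 of the 4 passed (median 0.17). The GITR ligand Tnfsf18 and Ccl1, another ligand of CCR8, stayed under 0.5 CPM on average and were not tested. Over 9 chemokines that attract regulatory T cells, Ccl8 included, 5 of 7 tested were above 0 with a median of 0.34 and 0 passing. Ccl22 had 0.65 (SE 0.37), Ccl28 -0.56 (SE 0.36) and Ccl5 0.35 (SE 0.26).

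Other genes by which regulatory T cells act were spread around 0. Of 20 genes, 15 were tested, 10 above and 5 below 0, 0 passing and a median of 0.09. Ctla4, the inhibitory receptor that competes with CD28, averaged 3.37 ± 0.89 CPM in normal-diet tumours and 5.54 ± 1.73 CPM in deficient ones (SD, n = 5 each), a log2 fold change of 0.71 (SE 0.28, adjusted p = 0.647 by edgeR). Lrrc32, which holds latent TGF-beta at the cell surface, had 0.48 (SE 0.27), the ectonucleotidase Nt5e -0.20 (SE 0.18) and Cxcr3 0.27 (SE 0.25). Izumo1r, Ccr4 and Gpr83, which also mark regulatory T cells, averaged at most 0.570, 0.118 and 0.041 CPM in either diet and were not tested. Of 17 Ikaros-family and FOXP3 partner genes, 13 of 15 tested lay above 0, with a median of 0.09 and 0 passing. Prdm1 (0.27, SE 0.13), Satb1 (0.79, SE 0.42), Bach2 (-0.39, SE 0.25) and Gata3 (0.38, SE 0.25) had the smallest p.

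Of the remaining costimulatory receptors and ligands, 11 of 16 were tested, 8 above and 3 below 0, with a median of 0.12 and 0 passing. Cd28 (0.70, SE 0.48), Cd80 (0.25, SE 0.18), Tnfsf14 (0.43, SE 0.31) and Cd86 (0.19, SE 0.22) led them, and Cd27 was listed at 0. The TRAF and NF-kB genes downstream of the TNF receptors had 9 of 10 estimates below 0, with a median of -0.06, a range of -0.31 to 0.01 and 0 passing. Traf5 (-0.31, SE 0.21), Traf1 (-0.23, SE 0.26), Nfkbia (-0.15, SE 0.20) and Relb (-0.12, SE 0.26) had the smallest p.

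Markers of cells that can share these transcripts overlapped between the diets too. T cell markers summed to 105 to 139 CPM in deficient and 82.9 to 140.1 CPM in normal-diet tumours, with 11 of 15 tested above 0, Cd2 (0.44, SE 0.28) and Cd4 (0.38, SE 0.31) among them. Natural killer cell markers summed to 28.7 to 69.1 and 17.9 to 58.1 CPM (7 of 7 above 0, Xcl1 listed at 0), with Ncr1 at 0.33 (SE 0.24). Mast cell and type 2 innate lymphoid markers summed to 298 to 352 and 229 to 429 CPM (5 of 9 above 0). Rora was at 0.92 (SE 0.49), with 1 deficient tumour at 21.1 CPM of it. The 4 below 0 were Kit (-0.20, SE 0.20), Mcpt4 (-0.18, SE 0.36), Tpsb2 (-0.17, SE 0.35) and Il1rl1 (-0.13, SE 0.15). Migratory dendritic cell markers summed to 251.7 to 426 and 267 to 487 CPM (3 of 7 above 0), and B cell markers to 3.33 to 6.13 and 3.53 to 6.46 CPM (0 of 3 above 0, Ms4a1 listed at 0). Macrophage markers summed to 2271 to 2725 and 2067 to 2678 CPM (4 of 7 above 0), endothelial to 164 to 199 and 179 to 220 CPM (0 of 6 above 0), and keratinocyte to 3.59 to 7.60 and 3.56 to 4.63 CPM, with Dsg3 at 0. No gene of these marker lists passed the test. Library totals ran from 12013178 to 31530123 counts. Skeletal muscle transcripts were at 6509.7 and 1474 CPM in deficient replicates 3 and 4 and 565 CPM in normal-diet replicate 4, and at 2.03 to 61.5 CPM elsewhere. Without those 3 tumours the log2 fold change of Il2ra was 0.67 and that of Icos 0.14, and 0 of the 6 genes passed.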

How the data were processed

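Total RNA of 10 tumours was sequenced, and the authors deposited raw counts per gene. Per the submitters' processing notes, FastQC, STAR and featureCounts were used on mm10; the sources used here give no version, strand setting or overlap rule. Columns were matched to libraries by the number in each description, Arg in a title meaning the deficient diet and Control the normal one. Symbols and positions came from GENCODE M21 (21379 rows matched with version, 437 with another, 33 with none), and upstream sequences from RefSeq, GRCm38.p6. Any pair of libraries differed by a chi-square of at least 16.7 per degree of freedom, so all counted as separate; the labels do not tie each library to its own mouse, and p-values then measure only the spread between these samples, which may be technical.

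Diets were compared by the quasi-likelihood test of edgeR 4.0.16 in R 4.3.3, on 12929 genes kept by filterByExpr (minimum count 10, total 15), TMM factors, diet only, Benjamini-Hochberg at 0.05; it was tested on simulated data. Alternatives used DESeq2 1.42.0 and limma 3.58.1. Members and lists were chosen with earlier results of these data known. Named genes were the members and up to 4 of smallest p per list, plus markers at 0. The rest (Il2rb, Il2, Cd27, Izumo1r, Ccr4, Gpr83, Tnfsf18, Ccl1, Mcpt4, Tpsb2, Il1rl1, Camta1, Ccdc22) were chosen after values were seen, as was the CD3 test by diet. The planned ratio of Foxp3 to CD3 counts, and the genes most like Foxp3, could not be computed because Foxp3 is at 0.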

Additional observations from a re-analysis of the deposited data

Results flagged for a closer look

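Among 10 measures checked in each diet (20 checks, of which chance alone would set apart about 1 in 20), 4 tumour values stood apart from the rest of their diet by more than Dixon's 95% limit for 5 samples, and none was a value of the 9 genes. Deficient replicate 3 had 25.7 CPM of CD3 transcripts, 6509.7 CPM of skeletal muscle transcripts and 9.97% of counts from mitochondrially encoded genes. Normal-diet replicate 4 had 565 CPM of skeletal muscle transcripts.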

How the results depend on the processing

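In each of 18 alternatives 0 members passed, among those that could be tested. The count over all genes moved from 7 to 130 with DESeq2, 373 with limma voom, 1 with the replicate block, 36 with the CD3 level as a term and 18 without the 3 tumours richest in muscle; with 1 library left out in turn it ran from 0 to 16 (0 if normal-diet replicate 1 or 3 was left out, 2 for normal-diet replicate 2 or deficient replicate 1, 2 or 5, 15 for normal-diet replicate 5, and 16 for deficient replicate 3). The replicate numbers did not pair the tumours: deviations of same-numbered tumours correlated at -0.35 to 0.18, and 1 of 5 deficient tumours correlated best with its own number. With the block, the log2 fold change was 0.58 for Il2ra and 0.28 for Icos, and no member's call changed. Il2ra, Icos and Ikzf2 kept their sign in every alternative. Under limma voom Icos stood at 0.050, Ikzf4 turned to 0.042 and Ccr8 to -0.11; with 1 library left out, Ikzf4 ran from -0.33 to 0.0094, Ccr8 from -0.12 to 0.52, Tnfrsf4 from -0.063 to 0.18, Il2ra from 0.36 to 0.81, Icos from 0.03 to 0.52 and Ikzf2 from -0.69 to -0.19. The cause was not tested.

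The r with the CD3 genes turned, without the 2 farthest tumours, to -0.45 for Il2ra, 0.55 for Ikzf2, 0.12 for Ikzf4 and -0.083 for Tnfrsf4. With 1 library left out it ran from -0.10 to 0.46 for Il2ra, -0.58 to 0.64 for Ikzf2, -0.86 to -0.30 for Ikzf4 (passing, adjusted p = 0.0479, without normal-diet replicate 4), 0.38 to 0.85 for Ccr8, -0.15 to 0.30 for Tnfrsf4 and 0.28 to 0.70 for Icos. The log2 difference of the CD3 sum between diets, 0.15, ran from -0.12 to 0.31, and was -0.054 without the 3 tumours richest in muscle. The stricter filter left no value for Ccr8 or Ikzf2. Alternatives on the ratio of Foxp3 to CD3 counts were not run. Ccr8, Ikzf2 and Tnfrsf9 had few counts, so their values are coarse, and the reason for the low counts was not tested.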
